A study of Mus musculus with 21 samples.

Results

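Serpins are a family of protease inhibitors, and 7 of their genes were followed here across dendritic cells and lymphocytes of the mouse spleen: Serpinb1a, Serpinb2, Serpinb6a, Serpinb6b, Serpinb8, Serpinb9 and Serpina3g. A probe set was taken for a gene where the platform annotation gave it that gene's symbol and no other, which found 9 of the 45101 probe sets on the array. They stood for 6 of the 7 genes, and Serpina3g was not analysed here because no probe set carried its symbol. The family was chosen by measured values of these arrays, namely that Serpinb2 was lower in DEC205 dendritic cells of mice with Flt3L melanoma than in those of wild-type mice. That difference, and everything else measured in the same pair of groups, is therefore given as a description with no test.

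A serpin offers a protease an exposed loop as bait. When the protease cuts the loop, the serpin changes shape and traps the enzyme in a covalent complex, so that both molecules are used up. Most serpins of clade B stay inside the cell that makes them, where they meet proteases leaking from granules or lysosomes or arriving from outside. Dendritic cells and cytotoxic lymphocytes both handle such enzymes, dendritic cells when they process antigen and cytotoxic lymphocytes when they release granzymes.

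The study holds 21 Affymetrix arrays in 7 groups of 3, and every array carried RNA pooled from several C57BL/6 mice. Dendritic cells (DCs) taken with the 33D1 antibody, which binds the CD8-negative subset, and with the DEC205 antibody, which binds the CD8-positive subset, came from mice injected with Flt3L melanoma (20 mice in a pool, killed on days 10 to 12) and from wild-type mice (40 to 80 mice in a pool). Flt3L is the growth factor that expands DCs, and here it came together with a tumour, so the effects of ligand and tumour cannot be told apart. B cells, CD8 T cells and CD4 T cells were sorted from wild-type spleens (5 to 8 mice in a pool). Nothing in the labels tells how the 3 pools of each group were made separate, so p-values measure only spread between arrays within groups. That spread, which may be technical, was estimated over all 7 groups together.

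The values are MAS5 signals, a brightness per probe set on a linear scale, and each array had been scaled to the same overall brightness. Array medians lay between 121.9 and 204.4, and the median of the whole table, 156.3, serves below as the mark of a low signal. Signals of different probe sets are not set against each other, because each probe set has its own brightness. Arrays within a group correlated with r between 0.949 and 0.979 across genes. T cell markers stayed under 156.3 on all DC arrays (6 of 6 measured). One array in each of 2 groups carried more signal of the opposite DC subset than the rest of its group. In 33D1 cells of Flt3L mice the summed signal of 11 CD8-positive DC markers was 10346 on replicate 3, against 5175 and 5970 on the other arrays. In DEC205 cells of wild-type mice the sum of 10 CD8-negative DC markers was 6766 on replicate 3, against 3122 and 2513. The summed neutrophil markers were also higher on that replicate, at 3277 against 927 and 1248. These replicates of the 2 groups are called the 2 mixed arrays below. Without them, every call named below between DC groups or between wild-type DCs and lymphocytes was kept, other than that of Serpinb6a in wild-type mice.

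Most of these genes lie in clusters of related serpins. In the RefSeq gene table Serpinb2 lies on chromosome 1 between Serpinb7 and Serpinb10, and Serpinb8 between Serpinb10 and Cdh7. Serpinb1a, Serpinb6a, Serpinb6b and Serpinb9 lie on chromosome 13, with Serpinb6b and Serpinb9 side by side. RNA of close relatives may bind to the same probes, and how much it did so here was not tested. The promoters of 4 genes whose signals separated the DC groups are shown, as the 250 bases before the transcription start in RefSeq's annotation of mouse build GRCm38.p6, 5′ to 3′ on the strand of the gene (plus in all 4). They are Serpinb2 at chr1:107511173-107511422 (the upstream of its 2 annotated starts), Serpinb6b at chr13:32965011-32965260, Serpinb8 at chr1:107589756-107590005 and Serpinb9 at chr13:33004291-33004540. Capitals mark matches to the motifs searched.
Serpinb2: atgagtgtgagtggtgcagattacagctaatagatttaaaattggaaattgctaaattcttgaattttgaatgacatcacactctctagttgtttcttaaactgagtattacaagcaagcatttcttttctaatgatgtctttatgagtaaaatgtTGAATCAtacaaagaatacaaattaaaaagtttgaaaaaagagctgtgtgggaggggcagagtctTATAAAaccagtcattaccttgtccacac
Serpinb6b: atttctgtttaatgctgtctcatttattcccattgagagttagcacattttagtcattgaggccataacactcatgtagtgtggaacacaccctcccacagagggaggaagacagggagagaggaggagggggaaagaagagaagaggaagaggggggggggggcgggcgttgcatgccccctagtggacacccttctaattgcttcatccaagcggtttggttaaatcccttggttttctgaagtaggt
Serpinb8: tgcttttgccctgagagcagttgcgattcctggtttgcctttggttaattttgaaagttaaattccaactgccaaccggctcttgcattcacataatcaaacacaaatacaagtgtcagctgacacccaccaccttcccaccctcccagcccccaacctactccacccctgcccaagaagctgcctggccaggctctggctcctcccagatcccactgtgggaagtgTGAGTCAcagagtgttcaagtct
Serpinb9: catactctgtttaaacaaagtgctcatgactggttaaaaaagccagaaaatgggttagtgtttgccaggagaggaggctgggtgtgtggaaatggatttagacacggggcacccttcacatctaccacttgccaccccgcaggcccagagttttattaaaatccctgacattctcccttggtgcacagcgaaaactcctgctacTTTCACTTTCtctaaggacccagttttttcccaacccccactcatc

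Motifs of 4 kinds were searched on both strands. The AP-1 element TGANTCA was found in the Serpinb2 promoter as TGAATCA, starting 94 bases before the transcription start, and in the Serpinb8 promoter as TGAGTCA, starting 23 bases before it; 6.75% of 32841 promoter windows of this length hold this motif. The TATA box TATAAA was found 29 bases before the Serpinb2 start, and 12.4% of all windows hold it. The interferon-stimulated response element (GAAA, any 2 bases, GAAA) was found on the minus strand of the Serpinb9 promoter, printed there as TTTCACTTTC and starting 46 bases before the start, and also in a promoter of Serpinb6a; 2.98% of all windows hold it. The composite element of ETS and IRF factors (GGAA, any 2 bases, GAAA), present in 2.3% of all windows, was found in 0 of the 6 genes with a promoter window. These 6 include Serpina3g, which had no probe set, and not Serpinb1a, which had no window and was not searched. The Serpinb6b window printed above held no match to any of the motifs. A match is a description of the letters only.

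Serpinb2 encodes plasminogen activator inhibitor type 2, which inhibits urokinase and tissue plasminogen activator and is known for its high levels in activated monocytes. In DEC205 cells its signals were 368, 155 and 279 on the arrays of Flt3L mice, against 1896, 1767 and 1822 in wild-type mice. Every wild-type array lay above every Flt3L array, and the wild-type arrays were close together. The means were 267 ± 107 in Flt3L mice and 1828 ± 64.7 in wild-type mice (SD, n = 3 each), a ratio of 0.146. On the scale used for all differences here, log2(signal + 48.6), that is -2.63, a value that chose the gene and carries no test. In these bulk samples, fewer cells of a type and less RNA per cell cannot be told apart.

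In 33D1 cells Serpinb2 stood at 425, 338.5 and 199.8 in Flt3L mice, against 516, 708 and 514.5 in wild-type mice. The groups did not overlap, though the share of all genes without overlap was not counted in 33D1 cells. The means were 321 ± 114 in Flt3L mice and 579.5 ± 111 in wild-type mice (SD, n = 3 each). The log2 difference of -0.80 ± 0.27 (SE) did not pass the test (limma, adjusted p = 0.205), with an interval of -1.36 to -0.24 before adjustment for the number of genes. Without the 2 mixed arrays it was -0.54, with an adjusted p of 0.7. Set against each other, 33D1 and DEC205 cells overlapped in Flt3L mice, at a log2 difference of 0.24, and lay apart in wild-type mice, at -1.59, both described with no test. Whether Flt3L melanoma moved Serpinb2 differently in the DC subsets was not tested, because that comparison contains the values that chose the gene.

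Some markers of other cells moved with the Serpinb2 signal of DEC205 cells. The summed signal of 6 B cell markers ran from 711 to 1165 in Flt3L mice and from 2585 to 2698 in wild-type mice, while B cells themselves had Serpinb2 signals of only 24.7 to 63. The sum of the CD8-negative DC markers ran from 1261 to 1354 in Flt3L mice and from 2513 to 6766 in wild-type mice. Wild-type 33D1 cells, which carry those markers, had less Serpinb2 signal than wild-type DEC205 cells. This sum was not particular to 33D1 cells (79314 to 84077 in wild-type mice). It ran from 36390 to 41843 in B cells, 31064 to 37444 in CD8 T cells and 34819 to 39007 in CD4 T cells. The summed signal of macrophage and monocyte markers (14 of 14 measured) overlapped, at 14352 to 15312 in Flt3L mice and 14430 to 18934 in wild-type mice. Single markers did not all do so: 6 of the 14 were lower in Flt3L mice without overlap, as were 9.16% of all genes tested. Csf1r, the receptor of a macrophage growth factor, ran from 614 to 827 in Flt3L mice and from 992 to 2033 in wild-type mice, and Adgre1, the F4/80 antigen, from 222 to 261 in Flt3L mice and from 291 to 729 in wild-type mice (both chosen after their values were seen). Wild-type 33D1 cells had more of both, at 6682 to 10049 for Csf1r and 3978 to 4691 for Adgre1, beside a Serpinb2 signal lower than in wild-type DEC205 cells. The summed neutrophil markers (7 of 9 measured) also overlapped, at 985 to 1483 in Flt3L mice and 927 to 3277 in wild-type mice. The value of 3277 came from the mixed array of that group. Markers of the sorted subset itself changed too. Of 11 CD8-positive DC markers, 3 were lower and 1 higher in Flt3L mice without overlap, as were 1217 and 1435 of all 13284 genes. Cd8a, chosen after its values were seen, was among the lower. Its signals were 11916, 7461 and 8475 in Flt3L mice, against 15806, 16334 and 15329 in wild-type mice. The part of any of these cells or changes in the Serpinb2 difference was not tested.

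Serpinb2 was a DC gene among the cells sorted. All 9 lymphocyte arrays lay between 24.7 and 66.7, under the table median, and all 12 DC arrays lay above them. Wild-type 33D1 cells exceeded the mean of the B, CD8 T and CD4 T cell groups by 2.74 ± 0.22 on the log2 scale (SE; limma, adjusted p = 8.15e-10). Because the lymphocyte signals were this low, the size depends on the offset, and it ran from 2.24 to 3.13 over the alternatives. The corresponding difference for wild-type DEC205 cells was 4.33 (3.76 to 4.76 over the alternatives), given with no test because those arrays chose the gene. In order of mean signal, wild-type DEC205 cells stood first, wild-type 33D1 cells next without overlap, and the 2 DC groups of Flt3L mice after them, overlapping each other. The 3 lymphocyte groups overlapped at the bottom.

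**Figure D1:**
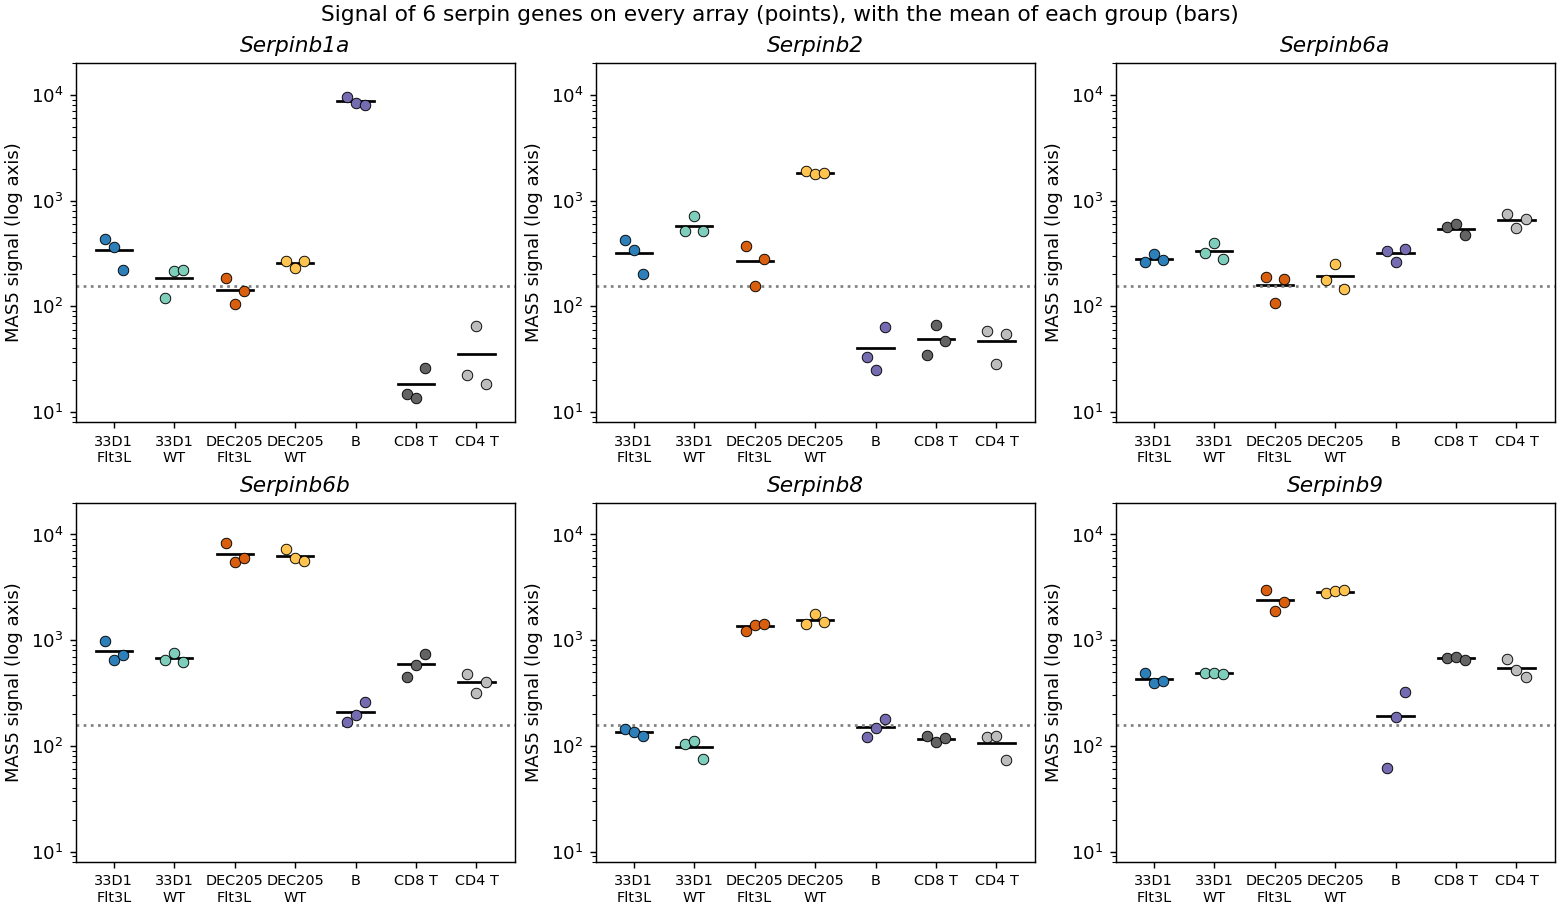
MAS5 signal (log axis) of 6 serpin genes on each of the 21 arrays; points are arrays, bars are group means and the dotted line is the table median of 156.3. In DEC205 cells Serpinb2 sits at 155 to 368 on the 3 arrays of Flt3L mice and at 1767 to 1896 on those of wild-type mice, while Serpinb6b, Serpinb8 and Serpinb9 are high in DEC205 cells of both kinds of mice.

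Serpinb6b, Serpinb8 and Serpinb9 formed the DEC205 side of the family. In Flt3L mice 5 of the 5 serpins tested differed between 33D1 and DEC205 cells, 2 higher and 3 lower, and in wild-type mice 4 of 5 did, 1 higher and 3 lower. Calls were made at a Benjamini-Hochberg adjusted p under 0.05. Of all 13284 genes tested, 23.5% were called in Flt3L mice (11.7% higher and 11.8% lower in 33D1 cells) and 23.1% in wild-type mice (11.3% higher and 11.8% lower). The lower genes in 33D1 cells were the same 3 in both kinds of mice.

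Serpinb6b encodes an inhibitor reported in the mouse to act on granzyme A. Its signals in Flt3L mice were 984, 650.5 and 724.5 in 33D1 cells, against 8322, 5456 and 5954 in DEC205 cells. In wild-type mice they were 652, 749.5 and 616 in 33D1 cells, against 7284, 5954 and 5656 in DEC205 cells. The subsets lay far apart in both kinds of mice. The log2 difference was -2.98 ± 0.20 in Flt3L mice and -3.13 ± 0.20 in wild-type mice (SE; limma, adjusted p = 1.52e-10 and 8.83e-11).

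Serpinb8, an inhibitor of the proprotein convertase furin in human studies, was under the table median in 33D1 cells. In Flt3L mice its signals were 144.5, 135 and 125 in 33D1 cells, against 1232, 1383 and 1433 in DEC205 cells. In wild-type mice they were 105, 112 and 75.3 in 33D1 cells, against 1414, 1785 and 1480 in DEC205 cells. DEC205 cells were thus the only sorted cells with all their arrays above the table median, since B cells passed it on a single array (122 to 178) and all T cell arrays were below it. The log2 difference between subsets was -2.93 ± 0.18 in Flt3L mice and -3.46 ± 0.18 in wild-type mice (SE; limma, adjusted p = 5.92e-11 and 5.95e-12). Genes were tested only if over the table median on at least 3 arrays, and Serpinb8 met that filter only through its DEC205 arrays. Its tests for higher signal in DEC205 cells are therefore not independent of the filter. Because the 33D1 signals were low, the size of the ratio between subsets is not fixed by these arrays.

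Serpinb9 protects cells from granzyme B, the enzyme by which cytotoxic lymphocytes kill, and is known in both cytotoxic and antigen-presenting cells. In Flt3L mice it measured 494, 392 and 407 in 33D1 cells, against 2970, 1903 and 2276 in DEC205 cells. In wild-type mice it measured 491, 485 and 482.5 in 33D1 cells, against 2815, 2893 and 2952 in DEC205 cells. The DEC205 arrays of Flt3L mice were spread, and the wild-type arrays lay close together within each subset. The log2 difference was -2.32 ± 0.27 in Flt3L mice and -2.46 ± 0.27 in wild-type mice (SE; limma, adjusted p = 6.63e-07 and 2.92e-07).

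Calls of these 3 genes between the DC subsets held in every alternative run. Without the 2 mixed arrays the differences in Flt3L mice were -2.94 for Serpinb6b, -2.89 for Serpinb8 and -2.29 for Serpinb9, and those in wild-type mice were -3.21, -3.50 and -2.44. The other probe set of Serpinb8 differed by -2.72 in Flt3L and -2.16 in wild-type mice, and that of Serpinb9 by -2.37 in Flt3L and -2.29 in wild-type mice, all without a test of their own.

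Serpinb6a, an inhibitor of cathepsin G in the granules of myeloid cells, ran the other way. In Flt3L mice it measured 260, 312 and 275 in 33D1 cells, against 189.5, 108 and 180.5 in DEC205 cells. In wild-type mice it measured 316, 393 and 281 in 33D1 cells, against 176, 252 and 146 in DEC205 cells. The 33D1 arrays lay above the DEC205 arrays in both kinds of mice. The difference was small, at 0.69 ± 0.20 in Flt3L mice and 0.67 ± 0.20 in wild-type mice on the log2 scale (SE; limma, adjusted p = 0.0147 and 0.0181). Without the 2 mixed arrays the call in Flt3L mice held (0.71, adjusted p = 0.0328) and that in wild-type mice was lost (0.53, adjusted p = 0.12). Leaving out single arrays also ended these calls. In Flt3L mice this was so for 33D1 replicate 2 (adjusted p = 0.0627) and DEC205 replicate 2 (0.107). In wild-type mice it was so for 33D1 replicate 2 (0.101), DEC205 replicate 1 (0.06) and DEC205 replicate 3 (0.106), the last itself a mixed array.

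Serpinb1a, which inhibits the neutrophil proteases elastase, cathepsin G and proteinase 3, differed between DC subsets in Flt3L mice. It measured 435, 365 and 220.1 in 33D1 cells, against 184, 105 and 140.1 in DEC205 cells of Flt3L mice, a log2 difference of 1.0 ± 0.25 (SE; limma, adjusted p = 0.0046), or 1.24 without the 2 mixed arrays (adjusted p = 0.00179). In wild-type mice it measured 120.4, 216 and 219 in 33D1 cells, against 270.1, 230.3 and 269 in DEC205 cells. There the difference was -0.41 ± 0.25 and did not pass the test (adjusted p = 0.28, interval -0.93 to 0.10). The other Serpinb1a probe set gave 1.0 in Flt3L mice and 0.04 in wild-type mice. All its DC arrays were under the table median, at 16.9 to 117.5, so these sizes depend on the offset. The probe set used above averaged 143 in DEC205 cells of Flt3L mice, also under it. Serpinb1a was far brighter in B cells, and the B cell marker sum of the DC groups, in percent of that of B cells, was 2.04 in 33D1 and 0.968 in DEC205 cells of Flt3L mice, and 2.94 in 33D1 and 2.52 in DEC205 cells of wild-type mice. Serpinb1a itself, in percent of its B cell signal, was 3.92 and 1.65 in 33D1 and DEC205 cells of Flt3L mice, and 2.13 and 2.96 in those of wild-type mice. The part of B cell RNA in these signals was not tested.

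Flt3L melanoma left the serpins of 33D1 cells without a call. Of the 6 serpins, 0 passed the limma test between Flt3L and wild-type mice, where 1.01% of all genes were called. The share of all genes with an unadjusted p under 0.05 was not counted. Among the serpins, 2 had such a p. These 2 were Serpinb2, given above, and Serpinb1a, at 0.72 ± 0.25 (SE; limma, adjusted p = 0.218, interval 0.20 to 1.24), or 0.97 without the 2 mixed arrays (adjusted p = 0.146). The intervals of the other 4 allowed log2 changes from -0.72 to 0.72. Serpinb6b differed by 0.20, Serpinb8 by 0.34, Serpinb6a by -0.19 and Serpinb9 by -0.16.

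In DEC205 cells, where 2.11% of all genes were called, the serpins other than Serpinb2 are described without a test. Serpinb6b measured 6578 ± 1530 in Flt3L mice and 6298 ± 866 in wild-type mice (SD, n = 3 each). Serpinb8 measured 1349 ± 104 in Flt3L mice and 1560 ± 198 in wild-type mice, and Serpinb9 measured 2383 ± 542 in Flt3L mice and 2887 ± 68.6 in wild-type mice. The arrays of Flt3L and wild-type mice overlapped for each of these 3 genes and for Serpinb6a. Serpinb1a, like 9.16% of all genes tested, was lower without overlap, at 143 ± 39.6 in Flt3L mice and 256.6 ± 22.8 in wild-type mice. The log2 differences were 0.05 for Serpinb6b, -0.20 for Serpinb8, -0.21 for Serpinb6a, -0.29 for Serpinb9 and -0.69 for Serpinb1a, beside -2.63 for Serpinb2.

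**Figure D2:**
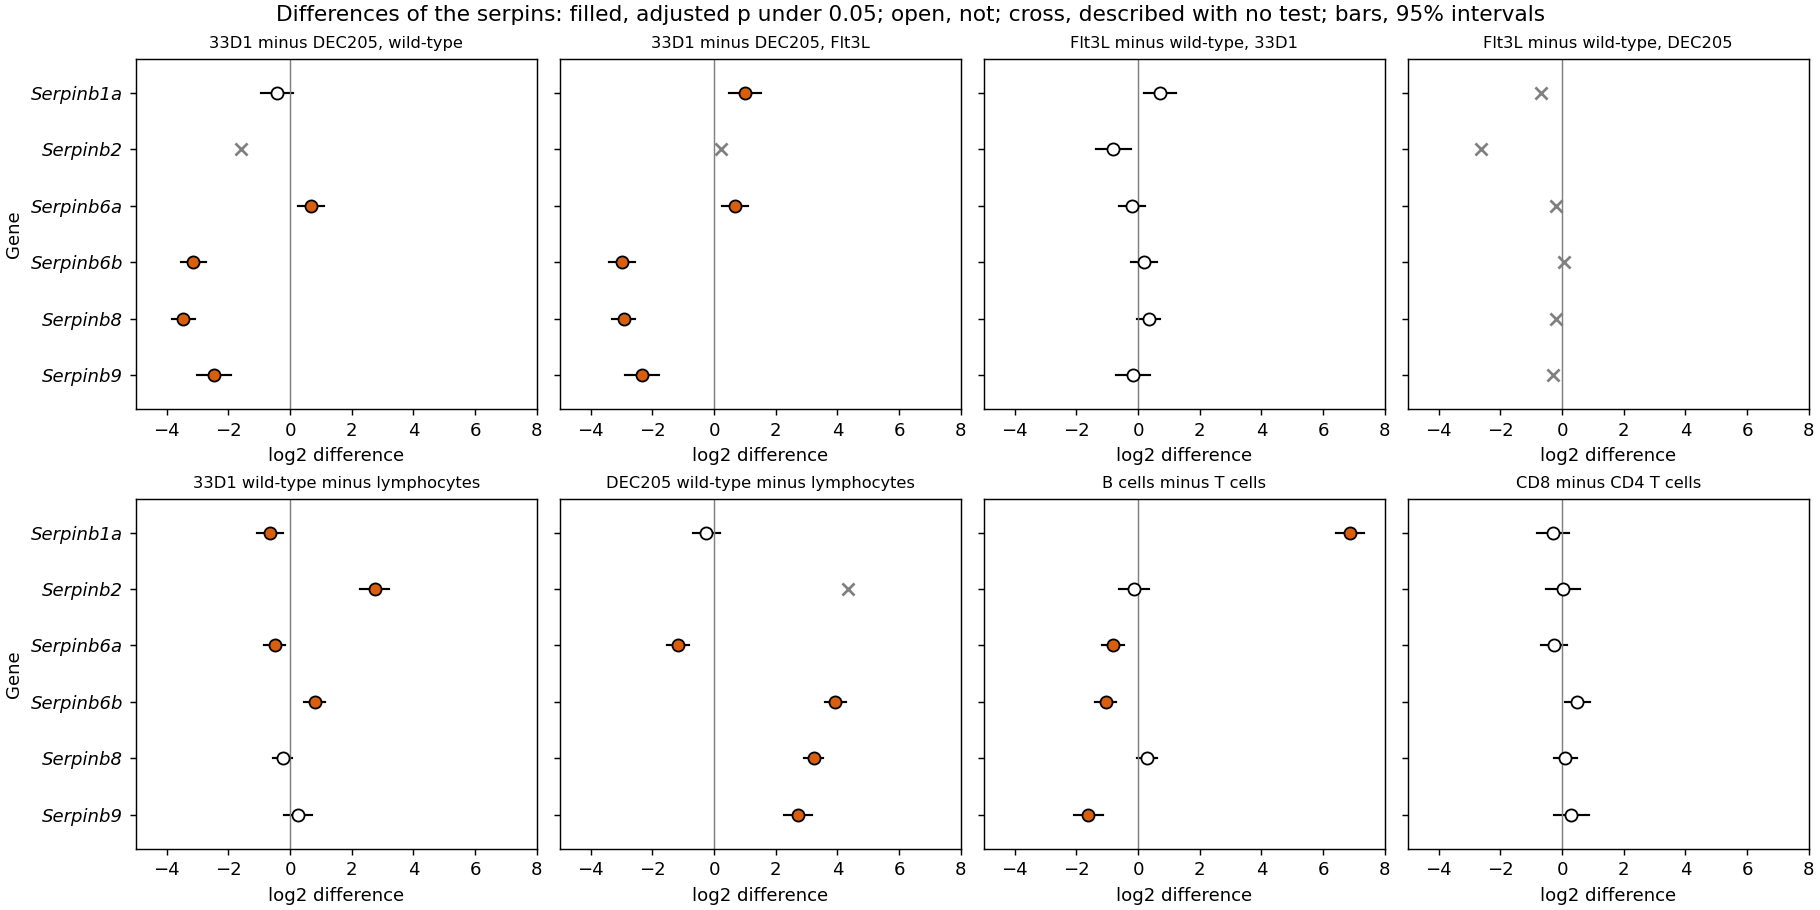
Differences of the 6 serpins on the log2(signal + 48.6) scale in 8 contrasts, as the first group minus the second; filled points passed an adjusted p under 0.05, open points did not, crosses are described with no test, and bars are 95% intervals. Serpinb6b, Serpinb8 and Serpinb9 lie at -3.46 to -2.32 in both comparisons of 33D1 with DEC205 cells, and Serpinb1a at 6.88 between B and T cells.

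The lymphocytes served to set the DC values against other cells of the spleen. Of the 5 serpins tested in wild-type DEC205 cells against lymphocytes, 3 were higher and 1 lower, where 49.1% of all genes were called (21.5% higher and 27.6% lower). Serpinb6b exceeded the mean of the lymphocyte groups by 3.93 ± 0.16, Serpinb8 by 3.23 ± 0.15 and Serpinb9 by 2.71 ± 0.22 on the log2 scale (SE; limma, adjusted p = 7.16e-15, 4.91e-14 and 6.29e-10). The Serpinb8 test is again not independent of the filter. Serpinb6a was lower, at -1.16 ± 0.17 (adjusted p = 3.65e-06), and Serpinb1a did not pass the test (-0.25, adjusted p = 0.342). The other Serpinb1a probe set, not tested, differed by -1.16.

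Wild-type 33D1 cells differed from lymphocytes in 4 of 6 serpins, 2 higher and 2 lower, where 43.1% of all genes were called (18.7% higher and 24.4% lower). Besides Serpinb2, Serpinb6b was higher, by 0.80 ± 0.16 (SE; limma, adjusted p = 0.000334). Serpinb6a was lower at -0.49 ± 0.17 (adjusted p = 0.0185) and Serpinb1a at -0.66 ± 0.20 (adjusted p = 0.0113). The other Serpinb1a probe set differed by -1.12. The Serpinb1a value averages B cells, which lay far above the DCs, with T cells, which lay below them. Both of the lower calls depended on single arrays and on the scaling: without 33D1 replicate 1 the adjusted p was 0.139 for Serpinb1a and 0.0691 for Serpinb6a, without 33D1 replicate 3 it was 0.112 for Serpinb6a, and with each array centred on its median it was 0.0685 and 0.0556. Serpinb8 (-0.24, adjusted p = 0.217) and Serpinb9 (0.26, adjusted p = 0.384) did not pass the test.

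Among lymphocytes, Serpinb1a marked the B cells. It measured 9600, 8395 and 8007 in B cells, against 14.7, 13.6 and 26.3 in CD8 T cells and 22.3, 65.2 and 18.2 in CD4 T cells. Every T cell array was under the table median. B cells exceeded the mean of the T cell groups by 6.88 ± 0.22 on the log2 scale (SE; limma, adjusted p = 1.03e-16). With T cells this low the size depends on the offset, and it ran from 6.15 to 7.48 over the alternatives. The other probe set of the gene gave 4.90. Of the 6 serpins, 4 differed between B and T cells, 1 higher and 3 lower, where 26.9% of all genes were called (13.1% higher and 13.9% lower in B cells).

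The 3 serpins lower in B cells were the 2 tied to granzymes and Serpinb6a. Serpinb9 averaged 191 ± 132 in B cells, 672.5 ± 25 in CD8 T cells and 543 ± 106 in CD4 T cells (SD, n = 3 each). The B cell arrays, at 61.8, 186.5 and 325, all lay below the T cell arrays but differed widely among themselves. Serpinb6b averaged 208.2 ± 49 in B cells, 590.6 ± 148 in CD8 T cells and 399.4 ± 83.6 in CD4 T cells. Serpinb6a was brightest in T cells, at 316.1 ± 45 in B cells, 540 ± 65.4 in CD8 T cells and 654.1 ± 94.6 in CD4 T cells. The log2 differences between B and T cells were -1.61 ± 0.23 for Serpinb9, -1.05 ± 0.17 for Serpinb6b and -0.82 ± 0.18 for Serpinb6a (SE; limma, adjusted p = 9.23e-06, 4.66e-05 and 0.000911). Serpinb2 (-0.13, adjusted p = 0.739) and Serpinb8 (0.30, adjusted p = 0.18) did not pass the test, and the other Serpinb8 probe set had the opposite sign, at -0.44.

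CD8 and CD4 T cells were not separated by any of these genes at the threshold used. Of the 6 serpins, 0 were called by limma, where 3.26% of all genes were called. The share of all genes with an unadjusted p under 0.05 was not counted. Among the serpins, 1 had such a p. That gene was Serpinb6b, at 0.50 ± 0.20 (SE; adjusted p = 0.244, interval 0.09 to 0.92). Serpinb9 differed by 0.30, with an interval of -0.26 to 0.86, which did not pass the test (adjusted p = 0.776).

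The rest of the serpin family was read from every other gene whose symbol starts with Serpin. Of 34 such genes on the array, 14 exceeded the table median on at least 3 arrays and were tested. Between 33D1 and DEC205 cells 2 were higher and 1 lower in Flt3L mice, and the same 3 genes were called in wild-type mice, beside the 23.5% and 23.1% of all genes. Serpinf1, the secreted pigment epithelium-derived factor, averaged 144.8 ± 69.7 in 33D1 and 3252 ± 355 in DEC205 cells of Flt3L mice, and 140.5 ± 41 in 33D1 and 2473 ± 60.7 in DEC205 cells of wild-type mice (SD, n = 3 each). Its log2 difference was -4.15 ± 0.24 in Flt3L and -3.76 ± 0.24 in wild-type mice (SE; limma, adjusted p = 2.49e-11 and 1.21e-10). Wild-type DEC205 cells exceeded the mean of the lymphocyte groups by 3.81 ± 0.20 (adjusted p = 4.21e-13).

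Among these 14 genes, Serpinb7 and Serpini1 were the ones higher in 33D1 cells. Serpinb7, the neighbour of Serpinb2, averaged 463.9 ± 69.6 in 33D1 and 71.2 ± 7.82 in DEC205 cells of Flt3L mice, and 483.6 ± 46.1 in 33D1 and 89.47 ± 19.6 in DEC205 cells of wild-type mice (SD, n = 3 each). The log2 difference was 2.09 ± 0.21 in Flt3L and 1.95 ± 0.21 in wild-type mice (SE; limma, adjusted p = 7.64e-08 and 2.06e-07). Serpinb7 was also higher in B than in T cells, by 1.09 ± 0.18 (adjusted p = 4.97e-05), and higher in wild-type 33D1 cells than in lymphocytes, by 1.30 ± 0.17 (adjusted p = 1.32e-06).

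Serpini1, neuroserpin, an inhibitor of tissue plasminogen activator, averaged 269.3 ± 43.5 in 33D1 and 79.53 ± 43.9 in DEC205 cells of wild-type mice, with lymphocyte means of 732.3 ± 132 in B cells, 591.2 ± 78.3 in CD8 T cells and 361.9 ± 49 in CD4 T cells (SD, n = 3 each). Its log2 difference between subsets was 1.34 ± 0.31 in Flt3L and 1.35 ± 0.31 in wild-type mice (SE; limma, adjusted p = 0.0023 and 0.00205). Against lymphocytes it was lower, at -0.89 in 33D1 cells (adjusted p = 0.00609) and -2.25 in DEC205 cells (adjusted p = 1.2e-07). Serpind1, heparin cofactor II, was also lower in wild-type DEC205 cells than in lymphocytes, at -1.26 ± 0.31 (adjusted p = 0.002), with means of 55.07 ± 43.5 in DEC205 cells against 173.3 to 202.8 in the lymphocyte groups. Against lymphocytes the 14 gave 1 higher and 1 lower call in wild-type 33D1 cells, and 1 higher and 3 lower calls in wild-type DEC205 cells, where 43.1% and 49.1% of all genes were called. Between Flt3L and wild-type 33D1 cells 0 were called by limma, with 1 at an unadjusted p under 0.05. The share of all genes at an unadjusted p under 0.05 was not counted. Between CD8 and CD4 T cells 0 were called, also with 1 at an unadjusted p under 0.05. That gene was Serpinf2 (-1.36, limma, adjusted p = 0.0665, named after its values were seen).

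The median log2 difference of the 14 genes between 33D1 and DEC205 cells was -0.05 in Flt3L mice and 0.16 in wild-type mice, beside 0.04 for all genes in both. Against lymphocytes it was -0.05 for wild-type 33D1 cells and -0.25 for wild-type DEC205 cells, beside -0.11 and -0.14 for all genes.

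**Figure D3:**
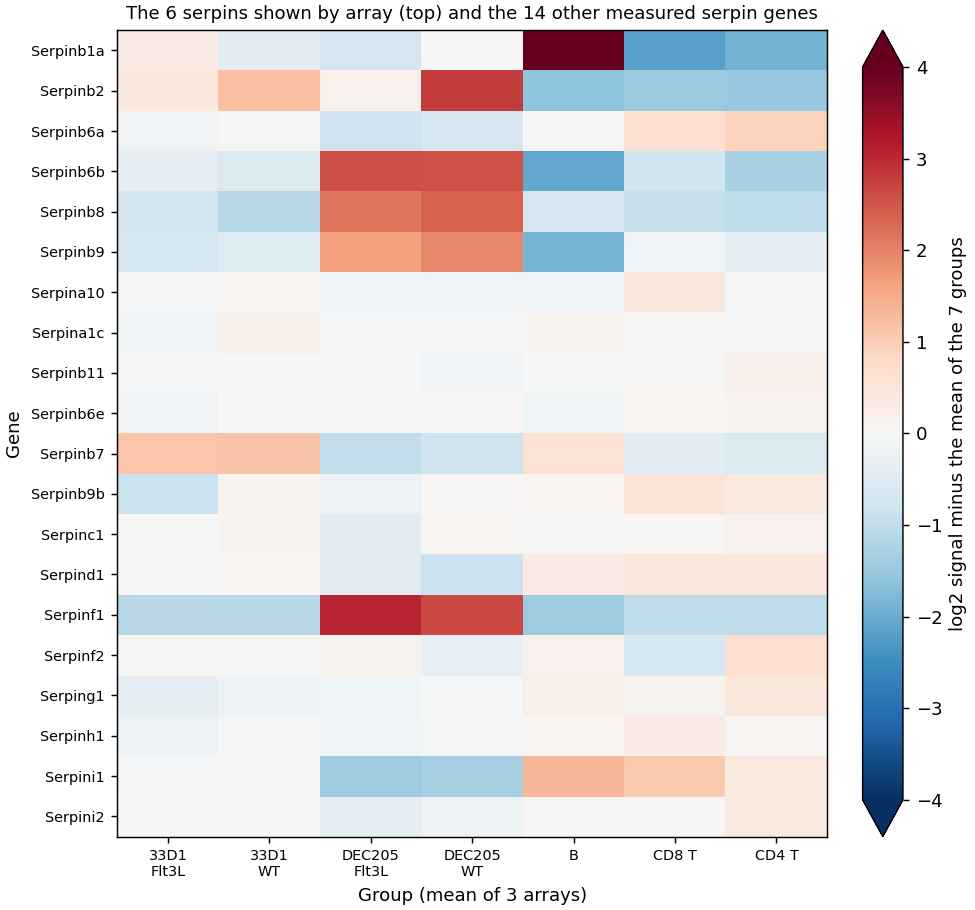
Mean log2(signal + 48.6) of 20 serpin genes in the 7 groups, each gene centred on its mean over the groups, so that red is above and blue below that mean; the 6 genes at the top are those shown by array. Serpinf1, with means of 3252 and 2473 in DEC205 cells of Flt3L and wild-type mice, is the other serpin that is bright in DEC205 cells, and Serpinb7 is bright in 33D1 cells.

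Of 18 proteases chosen as known or possible targets of such serpins, 13 were measured. Granzyme C, proteinase 3, cathepsin G, urokinase and cathepsin K did not exceed the table median on 3 arrays, and the gene of urokinase, Plau, the enzyme that Serpinb2 inhibits, reached 173.7 at most. Between 33D1 and DEC205 cells 2 proteases were higher and 1 lower in each kind of mice, where 23.5% of all genes were called in Flt3L mice and 23.1% in wild-type mice. With the replicate number as a block and only the groups of Flt3L mice in the fit, 6 proteases were called there: the same 3, and Gzmk, Ctsl and Ctss, all higher in 33D1 cells (limma, adjusted p = 0.0451, 0.0154 and 0.029). Ctsc, cathepsin C, which activates granzymes, was higher in 33D1 cells by 1.02 ± 0.13 in Flt3L and 0.88 ± 0.13 in wild-type mice (SE; limma, adjusted p = 2.36e-06 and 1.48e-05). Ctsh, the lysosomal cathepsin H, was higher by 1.16 ± 0.16 in Flt3L and 0.66 ± 0.16 in wild-type mice (adjusted p = 7.59e-06 and 0.00372). Furin, which human SERPINB8 inhibits, was lower in wild-type 33D1 cells, at 482.7 ± 81.4 in 33D1 and 686.8 ± 101 in DEC205 cells (SD, n = 3 each), a log2 difference of -0.47 ± 0.16 (SE; adjusted p = 0.0399). Without the filter on dim probe sets that call was lost (adjusted p = 0.0563), as it was when 33D1 replicate 2 or 3 or DEC205 replicate 1 or 2 was left out (0.112 to 0.166), and in Flt3L mice Furin did not pass (-0.33, adjusted p = 0.169). Gzmm, granzyme M, was lower in 33D1 cells of Flt3L mice by -0.77 ± 0.26 (adjusted p = 0.0324), although its mean signals of 69.57 in 33D1 and 146.5 in DEC205 cells were both under the table median. That call too was lost without the filter (0.0509), and when 33D1 replicate 1 or 2 or DEC205 replicate 1 or 3 was left out (0.0703 to 0.196).

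Set against lymphocytes, wild-type 33D1 cells had 4 proteases higher and 5 lower, and wild-type DEC205 cells had 4 higher and 6 lower, where 43.1% and 49.1% of all genes were called. Ctsh exceeded the mean of the lymphocyte groups by 4.41 ± 0.13 in 33D1 and 3.76 ± 0.13 in DEC205 cells (SE; limma, adjusted p = 4.01e-17 and 3.9e-16), and Ctsb, cathepsin B, by 1.28 ± 0.13 and 1.51 ± 0.13 (adjusted p = 6.01e-08 and 3.33e-09). Ctss, cathepsin S, which trims the invariant chain of MHC class II, was higher by 0.80 ± 0.11 in 33D1 cells (adjusted p = 2.09e-06). Ctsc was higher in 33D1 cells (0.32 ± 0.11, adjusted p = 0.0158) and lower in DEC205 cells (-0.56 ± 0.11, adjusted p = 0.000118). Ctsl, cathepsin L, was lower in both (-0.71 and -0.95, adjusted p = 0.00795 and 0.000595; named after its values were seen). Without 33D1 replicate 1 or 2 the Ctsc call in 33D1 cells was lost (adjusted p = 0.0953 and 0.0927), and without 33D1 replicate 3 the Ctsl call there was lost (0.117). The mean of the lymphocyte groups hides their spread: Ctsh averaged 9902 in B cells, against 135.4 in CD8 and 84.67 in CD4 T cells, so that B cells lay above wild-type DEC205 cells (8288) and below wild-type 33D1 cells (13130). Ctss averaged 20400 in B cells, beside 21600 in wild-type 33D1 and 18550 in wild-type DEC205 cells.

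Gzmb, granzyme B, the target of Serpinb9, is named here after its values were seen. It averaged 29.93 ± 16 in wild-type 33D1 cells, 48.63 ± 29.1 in wild-type DEC205 cells and 351.7 ± 76.6 in CD8 T cells (SD, n = 3 each). Both wild-type DC means of Gzmb were under the table median.

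B cells differed from T cells in 3 higher and 5 lower proteases, where 26.9% of all genes were called. Ctsh was higher by 6.01 ± 0.14, Ctsc by 1.41 ± 0.11 and Ctss by 1.07 ± 0.11 (SE; limma, adjusted p = 1.09e-18, 8.72e-10 and 1.02e-07). CD8 T cells differed from CD4 T cells in 3 higher and 1 lower, where 3.26% of all genes were called. Gzma, granzyme A, averaged 960.5 ± 350 in CD8 and 277.2 ± 154 in CD4 T cells (SD, n = 3 each), a log2 difference of 1.67 ± 0.29 (SE; adjusted p = 0.0011). Gzmm was higher by 1.51 ± 0.26 (adjusted p = 0.000863) and Ctsc by 0.58 ± 0.13 (adjusted p = 0.0101). These 4 calls became 2 when CD8 replicate 1 or CD4 replicate 1 was left out, and Ctsc was among those lost (adjusted p = 0.0591 and 0.0579). With its probe set of highest variance Ctsc differed by only 0.24 (limma, adjusted p = 0.917). Between Flt3L and wild-type 33D1 cells 0 of the 13 were called by limma, with 2 at an unadjusted p under 0.05, a mark not counted over all genes.

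The genes whose signals followed each serpin most closely were taken by Pearson's r on the log2 scale over the 21 arrays. These arrays fall into 7 sorted groups, so r mostly describes differences between cell types, and it is given with no p. For Serpinb2 they were Procr (r = 0.951), Plpbp (0.928) and Gfpt1 (0.927). Procr, the endothelial protein C receptor, averaged 584.3 ± 104 in Flt3L and 973.5 ± 172 in wild-type 33D1 cells. In DEC205 cells it averaged 809.7 ± 195 in Flt3L and 2522 ± 202 in wild-type mice (SD, n = 3 each), and its lymphocyte means were 13.17 to 16.97. Like Serpinb2, it was brightest in wild-type DEC205 cells. Procr was picked by its likeness to Serpinb2 over all arrays, those that chose the family among them. Its shared pattern therefore follows in part from that choice and is no separate evidence.

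The serpins of DEC205 cells had partners with the same outline. Serpinb8 was followed by Pdia5, a protein disulfide isomerase (r = 0.983), Farp2 (0.983) and Gcsam (0.981). Serpinb6b was followed by Cpq, a carboxypeptidase (0.974), Arsb, the lysosomal arylsulfatase B (0.969), and Rab5if (0.967). Serpinb9 was followed by Ppt2, a palmitoyl-protein thioesterase (0.983), Fndc7 (0.950) and Txndc15 (0.948). Pdia5 averaged 5649 in Flt3L and 6899 in wild-type DEC205 cells, and its means in 33D1 cells and lymphocytes ran from 20.47 to 76.83.

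Serpinb1a was followed by Smim14 (r = 0.978), Ppp3ca, the alpha catalytic subunit of calcineurin (0.965), and the zinc transporter Slc30a5 (0.959), all brightest in B cells. Serpinb6a was followed by Satb1, a chromatin organiser of T cells (0.947), Rab6b (0.937) and Rassf5 (0.937), all brightest in CD4 T cells.

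**Figure D4:**
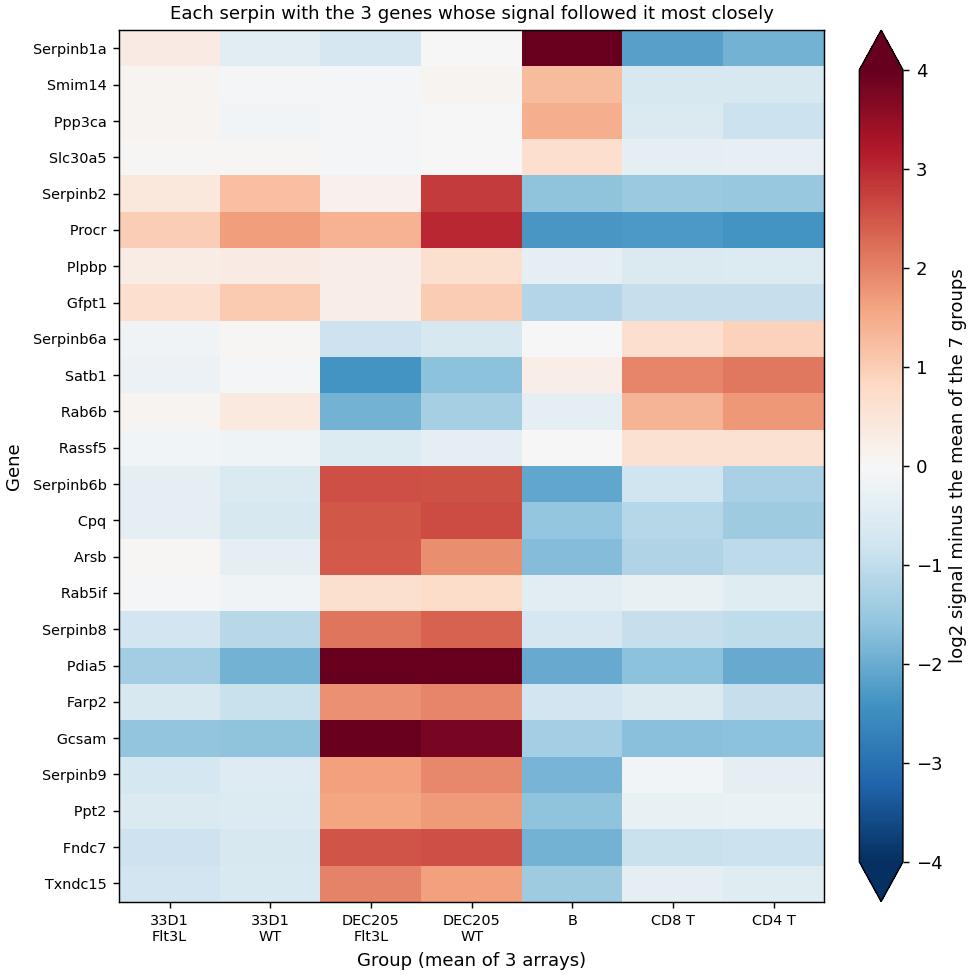
Mean log2(signal + 48.6) in the 7 groups of each serpin and the 3 genes with the highest Pearson r to it over 21 arrays, each gene centred on its mean over the groups (red above, blue below). Procr was picked for its likeness to Serpinb2 on these same arrays. Its mean was 809.7 in DEC205 cells of Flt3L mice and 2522, the brightest of its groups, in those of wild-type mice.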

How the data were processed

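RNA of cells sorted from pooled mouse spleens was labelled starting from 5 ug, per the labels. The deposited values are MAS5 intensities (signal) on a linear scale, which the authors made with the programs GCOS and MAS5 (submitters' processing notes; versions not given in the sources used here). A 2% trimmed mean of 500 was found on every deposited array. Groups and replicate numbers came from titles; in the description field the lymphocyte samples are called DCs.

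Of 45101 probe sets, 34945 had 1 gene symbol, 932 several and 9160 none, and 64 were controls. Probe sets over 156.3, the table median, on at least 3 arrays were kept (29201), and the one with the highest mean stood for each of 13284 genes; all 9 serpin probe sets passed. Signals were used as log2(signal + 48.6), the 25th percentile of the table, a scale that understates changes of low genes. One model held all 21 arrays, with group means (limma 3.58.1, R 4.3.3, lmFit and eBayes with trend, 14 residual degrees of freedom), two-sided, with Benjamini-Hochberg adjustment over all genes of a contrast. Lymphocytes stand for the mean of their 3 groups. With 3 arrays in a group, their number limits the precision. Figures were drawn with matplotlib 3.10.9 in Python 3.11.15. The model was tested on simulated data.

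Serpins, gene lists and tests were chosen with earlier results of these data known. Named were every serpin followed, up to 3 called genes of each list and contrast with the smallest adjusted p, and the 3 genes closest to each serpin. The promoters of 6 of 7 genes, all but Serpinb1a, were matched by symbol in RefSeq (8 windows).

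Alternatives changed the offset, filter, scaling, trend, groups fitted and probe set, added a replicate block, and left out arrays. Among pairs of groups set directly against each other, same-numbered arrays deviated together most evenly for 33D1 and DEC205 cells of Flt3L mice (r = 0.15 to 0.23 over genes). In the other such pairs the lowest r was 0.03 or below. B cells and CD4 T cells, compared only through the mean of both T cell groups, gave 0.09, 0.29 and 0.21. The source of any pairing is the replicate numbers in the titles.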

Additional observations from a re-analysis of the deposited data

Results flagged for a closer look

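Serpinb1a was flagged because its arrays lay apart in opposite directions in Flt3L and in wild-type mice. How many of all genes show such a pattern was not counted. In Flt3L mice the 33D1 arrays, at 220.1 to 434.7, all lay above the DEC205 arrays, at 104.9 to 184, a log2 difference of 1. In wild-type mice the 33D1 arrays, at 120.4 to 218.7, all lay below the DEC205 arrays, at 230.3 to 270.1, a log2 difference of -0.41. That wild-type difference did not pass the test (limma, adjusted p = 0.28). Read the other way, Flt3L minus wild-type was 0.72 in 33D1 cells and -0.69 in DEC205 cells, with no overlap between the arrays in either. In 33D1 cells the gap was narrow, from 218.7 to 220.1. In DEC205 cells 9.16% of all genes tested were lower without overlap, and that share was not counted for the other comparisons. Whether the Serpinb1a differences differ from each other was not tested, because the comparison contains the contrast from which the serpins were chosen. The other Serpinb1a probe set differed between subsets by 1.0 in Flt3L mice and by 0.04 in wild-type mice. All its DC arrays were under the table median. In 33D1 cells its Flt3L arrays (64.1 to 117.5) overlapped the wild-type arrays (57.4 to 89.5), at a log2 difference of 0.26. In DEC205 cells its log2 difference was -0.70.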

How the results depend on the processing

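No difference of a serpin that had passed its test changed sign in any alternative, and every call of Serpinb6b, Serpinb8 and Serpinb9 was kept. Calls of Serpinb6a between 33D1 and DEC205 cells were also lost in Flt3L mice with median centring (adjusted p = 0.0506), and in wild-type mice with quantile scaling (0.0531), median centring (0.0575) and only the groups compared (0.0612). Serpinb1a in wild-type 33D1 cells against lymphocytes lost its call at an offset of 24.3 (adjusted p = 0.172), and in wild-type DEC205 cells it gained a call at an offset of 97.2 (-0.53, adjusted p = 0.00971). Serpinb2 in wild-type DEC205 cells against lymphocytes, not tested, was 4.76 at the smaller and 3.76 at the larger offset. The 4 proteases called between CD8 and CD4 T cells became 2 with median centring, with only the groups compared and with the probe set of highest variance. Ctsc was among those lost each time (limma, adjusted p = 0.305, 0.0565 and 0.917). Furin lost its call with median centring (0.0615), only the groups compared (0.0728) and the probe set of highest variance (0.051), Gzmm in Flt3L mice with only the groups compared (0.0725), and Ctsc in DEC205 cells against lymphocytes with median centring (0.0877) and the probe set of highest variance (0.155). With median centring Ctsc (0.105) and Ctsl (0.0708) also lost theirs in 33D1 cells. The serpins called between wild-type 33D1 cells and lymphocytes numbered 2 in place of 4 with median centring, and 2 to 4 with single arrays left out. Of the 14 other serpins, 1 in place of 0 was called between CD8 and CD4 T cells with quantile scaling, and also without CD8 replicate 1. Between B and T cells 2 of them in place of 1 were called with only the groups compared. The 134 genes called between Flt3L and wild-type 33D1 cells became 63 with median centring, 85 without the 2 mixed arrays, 286 with only the groups compared, 87 without the trend and 53 to 111 with single arrays left out. For DEC205 cells 280 became 91 with median centring and 94 to 215 with single arrays left out. Between CD8 and CD4 T cells 433 became 255 with median centring, 219 with only the groups compared and 293 to 415 with single arrays left out. Median centring moved the median of all genes by 0.16 in DEC205 cells against lymphocytes and by 0.14 between B and T cells, and the share of calls that were higher went to 58.3% in place of 43.8%, and to 60.5% in place of 48.5%. With the replicate number as a block, 3048 genes were called between the subsets in Flt3L mice, or 4254 when only those groups were fitted (an alternative chosen after seeing the data), in place of 3125, and no call of a serpin changed. Causes were not tested.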
